A study of Mus musculus with 6 samples.

Results

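The genes described here are 36 genes of mitosis and of the passage from G2 into mitosis, out of 49315 genes in the count table of a mouse ovarian cancer line. They were chosen by symbol, from a list of mitotic genes, and all 36 matched an Ensembl gene of the GRCm38 build. All 36 passed the filter on low counts, beside 16033 tested genes in all. RNA was sequenced from 3 libraries of MNRR1 KO cells and 3 libraries of WT cells. Both genotypes are the cell line TKO (a triple knockout, whose knocked-out genes the labels do not name) from ovary, labelled as ovarian cancer, and WT means TKO cells with MNRR1 intact. MNRR1 is the product of Chchd2, a protein of mitochondria and nucleus. The KO libraries carry 1 clone name, so a property of that clone and the loss of MNRR1 cannot be told apart, and the labels do not say that the libraries of a genotype came from separate cultures. The p-values therefore reflect the spread among these libraries, which may be technical.

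Entry into mitosis is driven by cyclin-dependent kinase 1 bound to cyclin B, which CDC25 phosphatases switch on. The chromosomes then attach to spindle microtubules through kinetochores, and a checkpoint holds back anaphase until every kinetochore is attached. The anaphase-promoting complex ends mitosis by marking securin and the cyclins for destruction. Transcripts of most of these genes peak in G2 and mitosis. In resting cells they are repressed by the DREAM complex at a short promoter element called CHR (cell cycle genes homology region), and in dividing cells B-Myb and FoxM1 activate them, often with the CCAAT-binding factor NF-Y. In bulk RNA, fewer cells in G2 and mitosis and less RNA of a gene per such cell cannot be told apart.

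Total counts ran from 33226463 to 40983999 per library, and every one of the 36 genes had at least 1647 counts in each library. Levels are given in CPM, counts scaled to the size of each library, after TMM scaling, which sets libraries against one another by the genes of moderate change. Chchd2 was at 16.6, 17.6 and 17.0 CPM in KO replicates 1 to 3, against 367, 349 and 340 CPM in WT replicates 1 to 3. The markers of other cell types Cd3e and Tie1 had 0 counts in all libraries, and Ptprc stayed at or below 0.0515 CPM in KO and 0.266 CPM in WT cells. The summed level of 5 leukocyte markers, most of it Cd68, was 2.65 to 3.27 CPM in KO and 4.25 to 6.34 CPM in WT cells, and that of 4 endothelial markers, most of it Kdr, was 1.49 to 1.60 CPM in KO and 5.44 to 5.93 CPM in WT cells. Among ovarian, Mullerian and epithelial markers, Wt1 was at 668 to 685 CPM in KO and 695 to 759 CPM in WT cells. The other abundant ones moved in both directions. Krt7, Krt8, Krt18 and Msln were lower in KO cells, with log2 changes of -1.88, -0.76, -0.55 and -1.38, and Krt19 and Muc16 were higher, at 0.44 and 0.46. The epithelial markers Epcam and Cdh1 and the Mullerian marker Pax8 were near 0, with Epcam at most 2.94 CPM in KO and 2.39 CPM in WT cells. The sum of 6 epithelial markers was 1109 to 1145 CPM in KO and 1426 to 1637 CPM in WT cells. That of 5 fibroblast markers was 448 to 491 CPM in KO and 490 to 526 CPM in WT cells, nearly all of it Dcn, which did not pass the test. Of the rest of that list Pdgfrb was at 3.63 to 6.34 CPM in KO and 0.881 to 1.27 CPM in WT cells, and Thy1 had 0 counts in each KO library, against 69, 92 and 85 counts in WT libraries. Whether these marker levels have a part in the values below was not tested.

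Most, but not all, of these genes with a promoter at hand share short promoter letters. RefSeq promoters (GRCm38.p6, from 250 bases before the transcription start to 50 bases after it) were at hand for 30 of the 36 genes, all but Ccna2, Incenp, Kif20a, Tpx2, Cdc25c and Aurkb. The CHR letters TTTGAA, searched on both strands, were in 22 of the 30 (73.3%), against 18.1% of 27025 promoters with 1 promoter per gene. CCAAT, searched on both strands, was in 23 of the 30 (76.7%), against 37.9% of all promoters, and 20 of the 30 held both (66.7%, against 7.12%). In the Cdca8 promoter a TTTGAA and a CCAAT match share 1 base, and no other TTTGAA match in the 30 promoters overlaps a CCAAT match. A match is a description of the window, not a shown binding site. Below are 4 promoters from 150 bases before the start to 30 bases of the transcript, in the direction of transcription, with TTTGAA and CCAAT or their reverse complements in capitals. Ube2c and Ccnb1 had the greatest falls among the 36 genes, and Ccnb2 and Cenpf rose.
Ube2c (chr2:164769779-164769958, plus strand): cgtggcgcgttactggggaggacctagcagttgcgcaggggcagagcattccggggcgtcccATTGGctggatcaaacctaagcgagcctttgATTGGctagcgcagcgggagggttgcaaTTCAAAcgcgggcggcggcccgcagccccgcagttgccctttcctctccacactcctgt
Ccnb1 (chr13:100786457-100786636, minus strand): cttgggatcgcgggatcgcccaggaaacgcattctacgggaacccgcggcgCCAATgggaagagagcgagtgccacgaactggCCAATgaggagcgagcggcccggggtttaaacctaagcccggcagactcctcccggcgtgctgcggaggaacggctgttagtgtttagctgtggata
Ccnb2 (chr9:70421525-70421704, minus strand): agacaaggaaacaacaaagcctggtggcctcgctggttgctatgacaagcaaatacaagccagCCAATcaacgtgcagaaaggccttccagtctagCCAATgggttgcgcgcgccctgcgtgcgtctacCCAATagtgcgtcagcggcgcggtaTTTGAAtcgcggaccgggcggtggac
Cenpf (chr1:189688057-189688236, minus strand): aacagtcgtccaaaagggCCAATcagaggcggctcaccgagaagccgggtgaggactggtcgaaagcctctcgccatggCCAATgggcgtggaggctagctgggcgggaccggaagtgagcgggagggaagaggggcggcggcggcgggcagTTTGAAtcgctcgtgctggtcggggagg

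The CHR letters begin 29 bases before the start in Ube2c, and just after the start in Ccnb2 and Cenpf. Ccnb2 has them again 167 bases before the start, outside the stretch shown. These letters are not in the Ccnb1 window, which holds CCAAT at 99 and 67 bases before the start. Only the exact letters TTTGAA were searched, so a CHR of other letters would be missed, in Ccnb1 as in any promoter counted. Genes of both directions carried the CHR letters: 11 of the 14 lower genes with a promoter and 4 of the 6 higher ones, beside 7 of the 10 that did not pass the test. CCAAT was in 12 of the 14 lower genes, 3 of the 6 higher ones and 8 of the 10 that did not pass. A difference between these shares was not tested. The windows of Birc5, Mad2l1, Nuf2, Nusap1 and Pttg1 held neither TTTGAA nor CCAAT.

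The 36 genes changed by small amounts and in both directions. In edgeR's quasi-likelihood test with Benjamini-Hochberg adjustment over all 16033 genes (called below the edgeR adjusted p), 22 of the 36 passed 0.05, which is 61.1%, against 55.7% of all genes tested. Of these, 15 were lower in KO cells (41.7%, against 27.8% of all genes) and 7 were higher (19.4%, against 27.8% of all genes). All 36 were well expressed, with means of 50.5 to 755 CPM. Among the 5539 tested genes with a mean of at least 40 CPM, 67.8% were called, 42.5% lower and 25.3% higher, so the counts for mitotic genes lay near those of other abundant genes. None of the 36 changed 2-fold. Of all tested genes 14.1% did so and passed the test, and of those of at least 40 CPM 3.7% did. Fitted log2 changes, KO over WT, ran from -0.61 to 0.40 with a median of -0.11, beside a median of 0.01 over all tested genes and of -0.09 over those of at least 40 CPM. For 28 of the 36 genes the values of the genotypes did not overlap (77.8%, against 64% of all tested genes and 75.9% of those of at least 40 CPM).

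**Figure D1:**
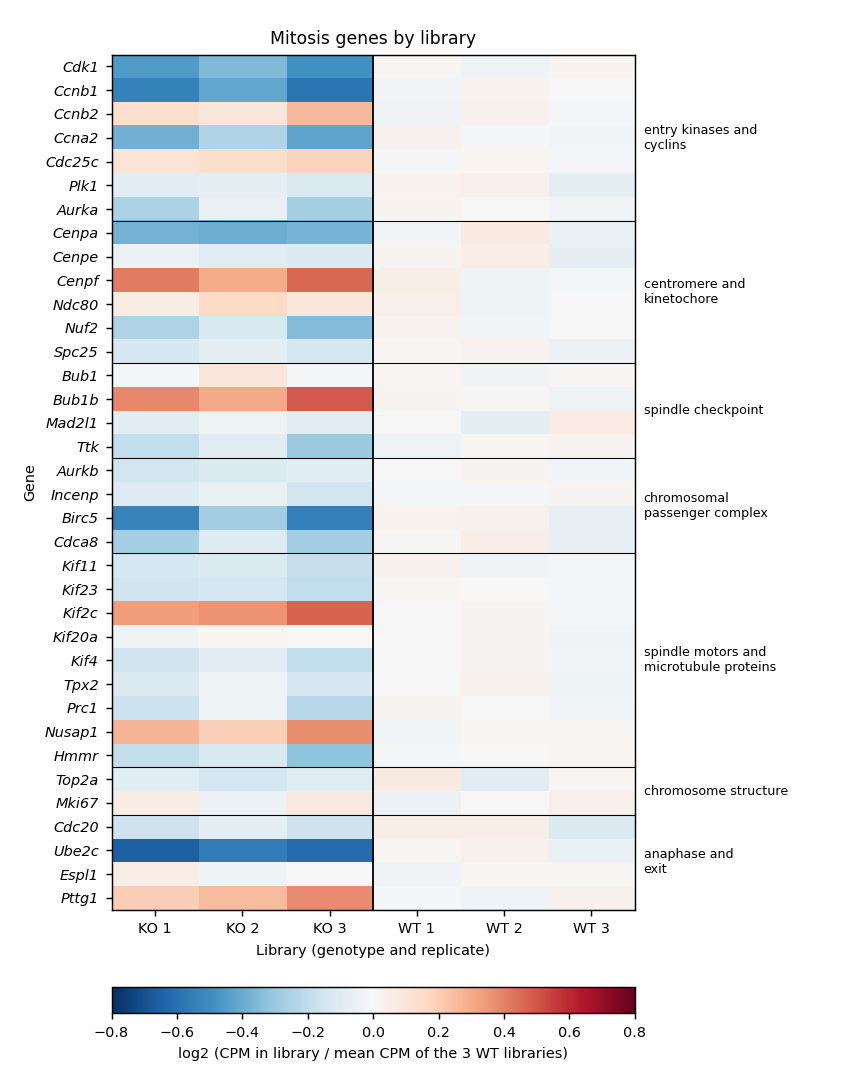
Level of each of the 36 mitosis genes (rows, grouped by step) in the 3 KO and 3 WT libraries (columns), as log2 of the CPM over the mean of the 3 WT libraries, blue for lower and red for higher. Ube2c, Ccnb1, Cdk1 and Birc5 are blue in all 3 KO libraries and Cenpf, Bub1b and Kif2c are red.

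After TMM scaling, the 36 genes summed to 6640, 6756 and 6625 CPM in KO and 7211, 7157 and 7099 CPM in WT replicates 1 to 3. The TMM factors were 1.05, 1.02 and 1.06 for KO and 0.948, 0.96 and 0.969 for WT replicates 1 to 3. Without these factors, as under library totals, the KO sums no longer lay below the WT sums, so this fall depends on TMM. KO replicate 2 was the closest of the KO libraries to WT in the TMM sum, and it was the KO library nearest the WT mean for 18 of the 22 called genes. The like count over all called genes was not made, so this is not shown to be particular to mitosis genes. Without KO replicate 2, 21 mitosis genes were lower and 7 higher, among 5064 lower and 4938 higher genes in all. The count of lower mitosis genes was 9 without KO replicate 1, WT replicate 1 or WT replicate 2, and that of all their calls was 14. Over all genes, 3799, 3841 and 3826 were lower without these libraries in turn, against 4463 with all libraries. Calls over all genes numbered 7585, 7634 and 7653, against 8926. Counts over all genes thus fell as well, but by a smaller share than those of the mitosis genes. The reason was not tested. Scaling moved the counts as well. With library totals in place of TMM the median over all tested genes was 0.13 in place of 0.01, and 6 mitosis genes were lower and 12 higher, among 3294 lower and 5769 higher genes in all. With upper quartiles 9 were lower and 8 higher, among 3927 lower and 4993 higher genes in all. Set against the median of all genes, the median of the 36 was -0.12 under TMM and -0.12 under library totals. A change of scaling moves all genes by about the same amount, so this difference had to stay nearly the same. It is no separate support for a shift, and under TMM genes of at least 40 CPM had a median of -0.09.

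**Figure D2:**
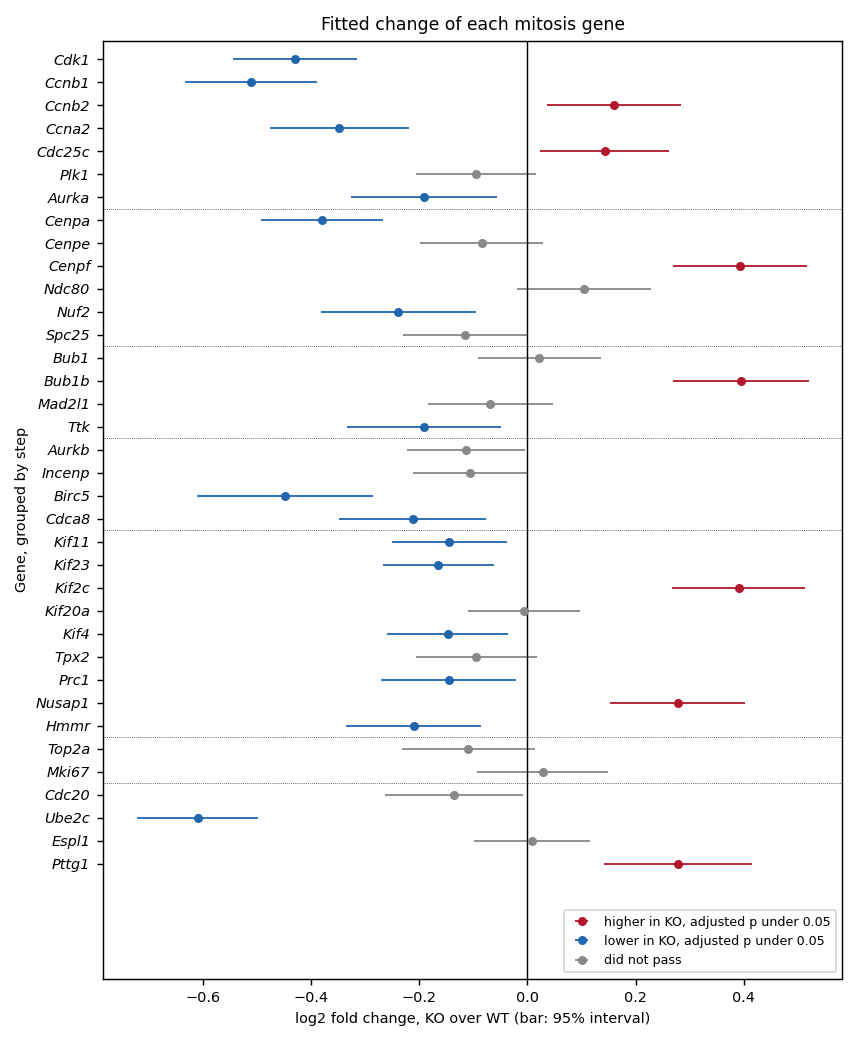
Fitted log2 fold change, KO over WT, of each mitosis gene with its 95% interval (bar), blue for lower and red for higher genes that passed the edgeR test and grey for those that did not. Changes run from -0.61 for Ube2c to 0.40 for Bub1b, and each step except the chromosomal passenger complex and chromosome structure holds both higher and lower genes.

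Among 15 alternative settings (other scalings, filters and tests, the replicate number as a block, and the omission of each library), 11 genes kept their call in all. The lower ones were Cdk1, Ccnb1, Ccna2, Cenpa, Birc5 and Ube2c, and the higher ones were Cenpf, Bub1b, Kif2c, Nusap1 and Pttg1. The share of all tested genes that kept a call in every setting is not given here, so these 11 are not set against other genes. The other 11 calls were lost in at least 1 setting and are given with their losses below. Counts by step below stand beside 27.8% lower and 27.8% higher over all genes tested. For genes of at least 40 CPM these shares were 42.5% and 25.3%.

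The kinase and cyclins of mitotic entry fell, with the exception of cyclin B2. Cdk1, which encodes the kinase that drives entry, was at 195, 209 and 191 CPM in KO cells, against 269, 260 and 271 CPM in WT cells. Each KO library lay below each WT library, and the log2 change was -0.43 (SE 0.05, edgeR adjusted p = 5.36e-05). Ccnb1, which encodes its main mitotic cyclin, was at 131, 143 and 128 CPM in KO cells, against 188, 195 and 190 CPM in WT cells. Its log2 change was -0.51 (SE 0.06, edgeR adjusted p = 2.46e-05), and no KO value reached a WT value. Ccna2, which encodes cyclin A2 of S phase and early mitosis, was at 350, 387 and 341 CPM in KO cells, against 468, 454 and 450 CPM in WT cells, a log2 change of -0.35 (SE 0.06, edgeR adjusted p = 4.48e-04). Ccna2 shares 510 bases of exon with Exosc9 on the opposite strand, itself at a log2 change of -0.33 (edgeR adjusted p = 0.0188). No source used here gives the strand setting of the counting.

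Ccnb2, the second mitotic B-type cyclin gene, was at 136, 133 and 149 CPM in KO cells, against 122, 128 and 124 CPM in WT cells. The groups did not overlap, and it rose by 0.16 on the log2 scale (SE 0.06, edgeR adjusted p = 0.0304). That call was lost with no filter (edgeR adjusted p = 0.0599) and without KO replicate 1, KO replicate 3 or any of the 3 WT libraries (0.0572 to 0.118). Both B-type cyclins are read against each other without any scaling in their count ratio. This log2 ratio was -0.05, 0.11 and -0.22 in KO cells, against 0.62, 0.61 and 0.62 in WT cells. The mean ratio was -0.06 ± 0.17 in KO and 0.62 ± 0.0046 in WT cells (SD, n = 3 each), with no overlap. The two-sided exact permutation test over libraries had p = 0.1, the lowest possible with 3 and 3 libraries, as for every ratio below whose groups did not overlap (0.121 after Benjamini-Hochberg adjustment over 17 ratios). These pairs were chosen with the values of their genes known.

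Cdc25c, a phosphatase gene of the CDK1 activation step, was at 51.8, 52.9 and 54.2 CPM in KO cells, against 47.7, 48.6 and 47.6 CPM in WT cells, a log2 change of 0.14 (SE 0.05, edgeR adjusted p = 0.0428). The call was lost in 9 of the 15 settings. These were the omission of KO replicate 1, KO replicate 3 or any WT library (edgeR adjusted p = 0.0761 to 0.132), DESeq2 size factors (0.0556), no filter (0.165) and the replicate block (0.0650), and DESeq2's own test gave an adjusted p of 0.0872. Cdc25c also shares 623 bases of exon with Gm3550 on the opposite strand, whose counts were 84, 117 and 100 in KO and 41, 49 and 84 in WT cells. Aurka, which encodes the kinase of centrosome maturation, was at 160, 183 and 158 CPM in KO cells, against 194, 191 and 188 CPM in WT cells, a log2 change of -0.19 (SE 0.06, edgeR adjusted p = 0.0205). KO replicate 2 was close to WT for this gene. The Aurka call was lost when KO replicate 1 (edgeR adjusted p = 0.104), WT replicate 1 (0.0780) or WT replicate 2 (0.0651) was omitted, with upper quartiles (0.0664) and with library totals (0.259). Plk1, which encodes a kinase that acts from entry to cytokinesis, was at 177, 179 and 174 CPM in KO and 193, 194 and 179 CPM in WT cells. It did not pass the test with all libraries (log2 change -0.10, 95% interval -0.21 to 0.02) but did so without KO replicate 2 (edgeR adjusted p = 0.0475).

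At the centromere and kinetochore, 2 of 6 genes were lower and 1 was higher. Cenpa, which encodes the histone H3 variant that marks centromeres, was at 118, 117 and 118 CPM in KO cells, against 151, 161 and 147 CPM in WT cells. KO values were close together and apart from WT, at a log2 change of -0.38 (SE 0.05, edgeR adjusted p = 1.07e-04). Cenpf, which encodes a large protein of the outer kinetochore, went the other way, at 188, 172 and 194 CPM in KO cells, against 145, 137 and 140 CPM in WT cells. It rose by 0.39 (SE 0.06, edgeR adjusted p = 1.62e-04). Cenpe, the gene of a kinetochore motor that helps chromosomes to congress, was at 197, 191 and 189 CPM in KO and 206, 211 and 194 CPM in WT cells and did not pass the test (log2 change -0.08, 95% interval -0.20 to 0.03).

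The NDC80 complex, the kinetochore's main microtubule anchor, is built from the products of Ndc80, Nuf2, Spc24 and Spc25. Nuf2 was at 53.8, 58.6 and 50.2 CPM in KO cells, against 65.1, 62.9 and 63.9 CPM in WT cells, a log2 change of -0.24 (SE 0.06, edgeR adjusted p = 0.00867), and its call was lost with library totals alone (0.104). Ndc80 was at 54.0, 57.9 and 55.1 CPM in KO and 53.1, 50.5 and 51.6 CPM in WT cells. Its groups did not overlap, but it passed only with upper quartiles (edgeR adjusted p = 0.0328) or library totals (0.00395), and its log2 change was 0.10. Spc25 was at 77.8, 80.6 and 77.4 CPM in KO and 86.2, 86.9 and 82.4 CPM in WT cells, a log2 change of -0.12 that passed without KO replicate 2 (edgeR adjusted p = 0.0225) and not with all libraries (0.0790). Spc24, outside the 36 genes, averaged 30.9 ± 1.39 CPM in KO and 42.6 ± 2.23 CPM in WT cells (SD, n = 3 each), a log2 change of -0.46 (edgeR adjusted p = 1.62e-04), and was named after its value was seen. Relative to Ndc80, Nuf2 had a log2 count ratio of -0.0038, 0.02 and -0.13 in KO cells, against 0.29, 0.32 and 0.31 in WT cells, and Spc25 one that averaged 0.50 ± 0.025 in KO and 0.72 ± 0.056 in WT cells (SD, n = 3 each). Neither ratio overlapped between genotypes.

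Among the 4 genes of the spindle checkpoint, Bub1b rose and Ttk fell. Bub1b encodes BubR1, a part of the complex that inhibits the anaphase-promoting complex, and was at 258, 244 and 277 CPM in KO cells, against 201, 199 and 192 CPM in WT cells. All KO values lay above all WT values, and the log2 change of 0.40 (SE 0.06, edgeR adjusted p = 1.66e-04) was the greatest rise of the 36. Its relative Bub1, a checkpoint kinase gene, was at 139, 150 and 139 CPM in KO and 142, 138 and 142 CPM in WT cells. Bub1 did not pass (log2 change 0.02, 95% interval -0.09 to 0.14), except with library totals (edgeR adjusted p = 0.0191). Mad2l1, which encodes the MAD2 inhibitor of CDC20, was at 135, 139 and 135 CPM in KO and 143, 136 and 149 CPM in WT cells and did not pass (log2 change -0.07, 95% interval -0.18 to 0.05). Ttk, the gene of the kinase MPS1 that starts the checkpoint signal, was at 49.8, 53.6 and 46.5 CPM in KO cells, against 55.5, 57.7 and 58.0 CPM in WT cells, a log2 change of -0.19 (SE 0.06, edgeR adjusted p = 0.0254). The Ttk call was lost without KO replicate 1 (edgeR adjusted p = 0.0812), KO replicate 3 (0.0757), WT replicate 2 (0.0824) or WT replicate 3 (0.0772), with upper quartiles (0.0843) and with library totals (0.330). In counts, the log2 ratio of Bub1b to Bub1 averaged 0.86 ± 0.15 in KO and 0.49 ± 0.046 in WT cells (SD, n = 3 each) and did not overlap.

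The chromosomal passenger complex corrects faulty attachments and guides cytokinesis, and 2 of its 4 genes were lower. Birc5, which encodes survivin, was at 78.9, 94.3 and 78.2 CPM in KO cells, against 117, 117 and 109 CPM in WT cells. KO replicate 2 lay between the remaining KO libraries and WT, and the log2 change was -0.45 (SE 0.07, edgeR adjusted p = 4.19e-04). Cdca8, which encodes borealin, was at 107, 120 and 106 CPM in KO cells, against 130, 134 and 123 CPM in WT cells, a log2 change of -0.21 (SE 0.06, edgeR adjusted p = 0.0126). That call was lost when KO replicate 1 (edgeR adjusted p = 0.0665), WT replicate 1 (0.0503) or WT replicate 2 (0.0647) was omitted, and with library totals (0.163). Aurkb, the gene of the complex's kinase, was at 86.0, 88.6 and 89.9 CPM in KO and 95.4, 96.7 and 94.2 CPM in WT cells, and Incenp, the gene of its scaffold, averaged 218 ± 6.91 CPM in KO and 234 ± 3.52 CPM in WT cells (SD, n = 3 each). At log2 changes of -0.11 each, neither passed with all libraries, although both did without KO replicate 2 (edgeR adjusted p = 0.0391 for Aurkb and 0.0116 for Incenp). Within the complex, the log2 ratio of Aurkb to Incenp counts was -1.30 ± 0.065 in KO and -1.29 ± 0.038 in WT cells, which overlapped, whereas that of Birc5 to Incenp was -1.38 ± 0.11 in KO and -1.03 ± 0.077 in WT cells, which did not (SD, n = 3 each).

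**Figure D3:**
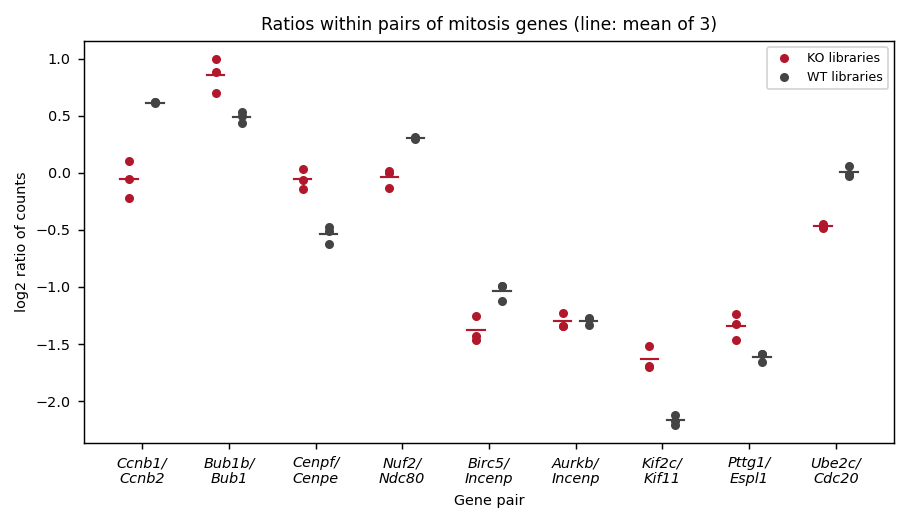
Log2 ratio of the counts of 2 mitosis genes in each of the 3 KO (red, left) and 3 WT (grey, right) libraries, with a line at the mean. The ratio of Ccnb1 to Ccnb2 is near 0 in KO and at 0.62 in WT libraries, and of the 9 pairs drawn only Aurkb to Incenp overlaps.

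Of 9 genes of spindle motors and microtubule proteins, 5 were lower and 2 higher. The higher ones were Kif2c, which encodes the microtubule-depolymerising kinesin MCAK, and Nusap1, which encodes a microtubule-bundling protein. Kif2c was at 78.0, 79.3 and 85.5 CPM in KO cells, against 61.5, 62.6 and 61.1 CPM in WT cells, a log2 change of 0.39 (SE 0.06, edgeR adjusted p = 1.57e-04). Nusap1 was at 123, 117 and 132 CPM in KO cells, against 101, 103 and 103 CPM in WT cells, a log2 change of 0.28 (SE 0.06, edgeR adjusted p = 0.00162). Every KO library lay above every WT library for both.

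The lower spindle genes changed little. Hmmr, the gene of a spindle pole protein that is also a hyaluronan receptor, was at 152, 160 and 140 CPM in KO cells, against 173, 174 and 175 CPM in WT cells, a log2 change of -0.21 (SE 0.06, edgeR adjusted p = 0.00847) that was lost with library totals alone (0.145). Kif23, which encodes a kinesin of the central spindle, fell by 0.16 (edgeR adjusted p = 0.0110), and the call was lost without WT replicate 1 (0.0520), with upper quartiles (0.0515) and with library totals (0.387). Kif11, which encodes the kinesin Eg5 that pushes spindle poles apart, fell by 0.14 (edgeR adjusted p = 0.0248), and Kif4, the gene of a chromosome-bound kinesin, and Prc1, which bundles the microtubules of the central spindle, by 0.15 each (0.0287 and 0.0481). These 3 calls were lost with upper quartiles and with library totals, and without KO replicate 1, KO replicate 3 or any WT library (edgeR adjusted p = 0.0555 to 0.107 for Kif11, 0.0506 to 0.103 for Kif4 and 0.0859 to 0.161 for Prc1 over the omitted libraries). The Kif4 call was also lost with no filter (edgeR adjusted p = 0.0529), and the Prc1 call with the filter of 1 CPM (0.0505). Kif4 and Prc1 share 832 and 911 bases of exon with Pdzd11 and Rccd1 on the opposite strand. Pdzd11 was itself at a log2 change of -0.27 (edgeR adjusted p = 0.00519), and Rccd1 did not pass (0.121). Tpx2, which encodes an activator of Aurora A, averaged 339 ± 12.8 CPM in KO and 362 ± 8.15 CPM in WT cells (SD, n = 3 each). It passed only without KO replicate 2 (edgeR adjusted p = 0.0111). Kif20a, a cytokinesis kinesin gene, was at 306, 316 and 312 CPM in KO and 313, 318 and 307 CPM in WT cells, and its log2 change was -0.01 (95% interval -0.11 to 0.10). It shares 29.3% of its exon length with Cdc23 on the opposite strand, and with library totals it was at 0.11 (edgeR adjusted p = 0.0328).

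The proliferation marker Mki67, whose protein coats mitotic chromosomes, was at 779, 723 and 784 CPM in KO cells, against 725, 748 and 769 CPM in WT cells. The genotypes overlapped, and the log2 change of 0.03 had a 95% interval of -0.09 to 0.15. With library totals Mki67 was at 0.15 (edgeR adjusted p = 0.0406). Top2a, which encodes the topoisomerase that untangles sister chromatids, was at 602, 580 and 598 CPM in KO and 673, 602 and 646 CPM in WT cells. It did not pass either (log2 change -0.11, 95% interval -0.23 to 0.01).

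Of the 4 genes of anaphase and exit, Ube2c had the greatest fall of all 36. It encodes the ubiquitin-conjugating enzyme that works with the anaphase-promoting complex, and was at 138, 147 and 142 CPM in KO cells, against 220, 223 and 209 CPM in WT cells. The groups lay far apart for this gene, at a log2 change of -0.61 (SE 0.05, 95% interval -0.72 to -0.50, edgeR adjusted p = 4.63e-06), so that its level dropped by 34.5%. It shares 592 bases of exon with Tnnc2 on the opposite strand, which had 3 counts or fewer in every library. Pttg1, which encodes securin, the inhibitor of separase, was at 57.8, 59.9 and 65.5 CPM in KO cells, against 50.1, 49.3 and 51.6 CPM in WT cells. It rose by 0.28 (SE 0.06, edgeR adjusted p = 0.00291). Espl1, the gene of separase itself, was at 159, 150 and 154 CPM in KO and 150, 155 and 155 CPM in WT cells and overlapped (log2 change 0.01, 95% interval -0.10 to 0.12), although it passed with library totals (edgeR adjusted p = 0.0475). Securin relative to separase, the log2 ratio of Pttg1 to Espl1 counts, averaged -1.34 ± 0.12 in KO and -1.61 ± 0.041 in WT cells (SD, n = 3 each), with no overlap.

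Cdc20, the activator of the anaphase-promoting complex, was at 193, 204 and 192 CPM in KO cells, against 224, 224 and 200 CPM in WT cells. KO replicate 2 lay above WT replicate 3, and the gene did not pass (log2 change -0.14, 95% interval -0.26 to -0.01, edgeR adjusted p = 0.0672), except without KO replicate 2 (0.0065) or without WT replicate 3 (0.0242). The log2 ratio of Ube2c to Cdc20 counts was -0.48, -0.47 and -0.44 in KO cells, against -0.03, -0.01 and 0.06 in WT cells. In all, 17 such ratios were computed. The groups overlapped for 3 of them (Aurkb to Incenp, Cdca8 to Incenp and Tpx2 to Aurka).

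**Figure D4:**
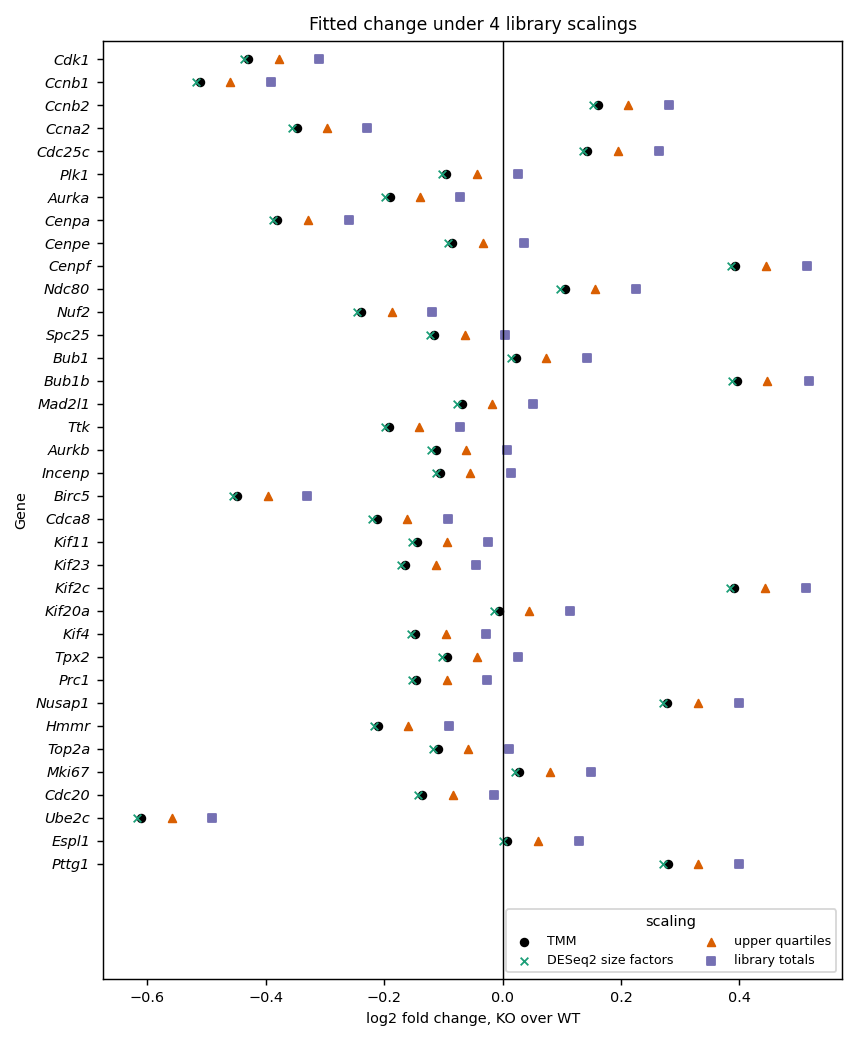
Fitted log2 fold change, KO over WT, of each mitosis gene under TMM, DESeq2 size factors, upper quartiles and library totals. Library totals place every gene farther right than TMM does, and 9 genes, none of them called under TMM, change sign between scalings.

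Levels can be set between genes only per length, here as mean CPM per kilobase of all annotated exons of a gene, a length that exceeds the main transcript for genes with long alternative exons. On this scale Cdc20 was highest, at 105 in KO and 116 in WT cells. Ccnb2 came next in KO cells, at 91.0 before Ccna2 at 88.0, whereas in WT cells Ccna2 was at 112 and Ccnb2 at 81.4. Nuf2 and Ndc80 were lowest in KO cells, at 8.55 and 8.57, and Ndc80 was lowest in WT cells at 7.97. Across the 36 genes the log2 change had a Spearman rho of 0.07 with this exon length.

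Other genes of the same machinery also moved in both directions, and their counts stand beside 27.8% higher and 27.8% lower over all genes tested. Among tested genes of at least 40 CPM, a level that not all of these genes reach, 25.3% were higher and 42.5% lower. Of 23 further entry and exit regulators, 4 were higher (17.4%) and 10 lower (43.5%), with a median log2 change of -0.12. Ube2s, which encodes the partner enzyme of Ube2c at the anaphase-promoting complex, averaged 138 ± 6.77 CPM in KO and 218 ± 3.94 CPM in WT cells (SD, n = 3 each), a log2 change of -0.66. Cdc25a, a phosphatase gene of S phase and mitotic entry, was at -0.71 and Cks2, the gene of a CDK1 subunit, at -0.53. Anapc2, which encodes a catalytic subunit of the anaphase-promoting complex, rose by 0.64. The log2 ratio of Cdc25c to Cdc25a counts averaged -0.67 ± 0.21 in KO and -1.53 ± 0.043 in WT cells (SD, n = 3 each), without overlap. Of 48 further kinetochore, checkpoint, cohesin and condensin genes, 5 were higher (10.4%) and 17 lower (35.4%), with a median of -0.04. Trip13, the gene of an ATPase that disassembles the checkpoint complex, averaged 56.1 ± 4.47 CPM in KO and 93.0 ± 1.21 CPM in WT cells (SD, n = 3 each), a log2 change of -0.73. The centromere gene Cenpw was at -0.58 and the kinetochore gene Ska2 at -0.48, and Mad2l1bp, whose product binds MAD2, rose by 0.50. Of 33 further spindle, centrosome and cytokinesis genes, 6 were higher (18.2%) and 11 lower (33.3%), with a median of -0.05. Anln, the gene of the cytokinesis scaffold anillin, was at -0.56, the mitotic kinase gene Pbk at -0.56, the spindle gene Tacc3 at -0.45 and the centriole kinase gene Plk4 at -0.34. This count of 17 calls was 9 without KO replicate 1 or WT replicate 1, 10 without WT replicate 2 or WT replicate 3 and 11 without KO replicate 3. Calls over all genes ran from 7585 to 8342 in these settings, against 8926 with all libraries. All 12 genes named here kept their direction and their edgeR call in every setting.

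Of 25 genes of G2/M transcription control, 5 were higher (20.0%) and 11 lower (44.0%), against 27.8% each way over all genes tested. Genes of at least 40 CPM were higher in 25.3% and lower in 42.5% of cases. The median log2 change of the 25 was -0.14. Both activators were lower. Mybl2, which encodes B-Myb, was at 100, 123 and 98.9 CPM in KO cells, against 175, 170 and 162 CPM in WT cells, a log2 change of -0.65 (SE 0.08, edgeR adjusted p = 5.80e-05). Foxm1 averaged 151 ± 3.28 CPM in KO and 187 ± 3.07 CPM in WT cells (SD, n = 3 each), a log2 change of -0.32 (SE 0.05, edgeR adjusted p = 2.10e-04). Subunits of the repressing DREAM complex moved in both directions. Rbl2, which encodes the DREAM pocket protein p130, rose by 0.96 to 53.9 ± 4.57 CPM in KO, against 27.6 ± 1.09 CPM in WT cells, and Lin37 rose by 0.84. E2f4, which encodes the E2F of DREAM, fell by 0.46, Tfdp1, the gene of its partner DP1, by 0.40 and the DNA-binding subunit gene Lin54 by 0.35, while Rbl1, the gene of the pocket protein p107, did not pass (log2 change -0.02). The genes of the repressors E2F7 and E2F8 fell by 0.60 and 0.55. Of the activating E2F genes, E2f2 rose by 0.68, E2f1 fell by 0.57 and E2f3 fell by 0.33. Beyond the rule for named genes, those of E2F, DP1, Lin54 and Rbl1 are named after their values were seen. Cdkn1a, which encodes the CDK inhibitor p21, was at 19.1, 17.0 and 20.2 CPM in KO cells, against 3.57, 3.30 and 3.30 CPM in WT cells, a log2 change of 2.47 (SE 0.11, edgeR adjusted p = 6.03e-08). It was the 1 gene of the 5 related lists to pass the test at a change of at least 2-fold. Whether these regulators bear on the mitotic genes was not tested.

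Of 42 genes of DNA replication, which peak before mitosis, 2 were higher and 23 lower (54.8%, against 27.8% of all genes tested and 42.5% of those of at least 40 CPM) with a median log2 change of -0.21. The nucleotide enzyme genes Rrm1 and Tyms were at -0.57 and -0.56, the cyclin gene Ccne2 at -0.56 and the origin licensing gene Cdc6 at -0.56. The summed level of all 42 was 5346, 5746 and 5217 CPM in KO cells, against 6510, 6280 and 6421 CPM in WT cells. A difference between the replication and the mitotic genes was not tested.

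**Figure D5:**
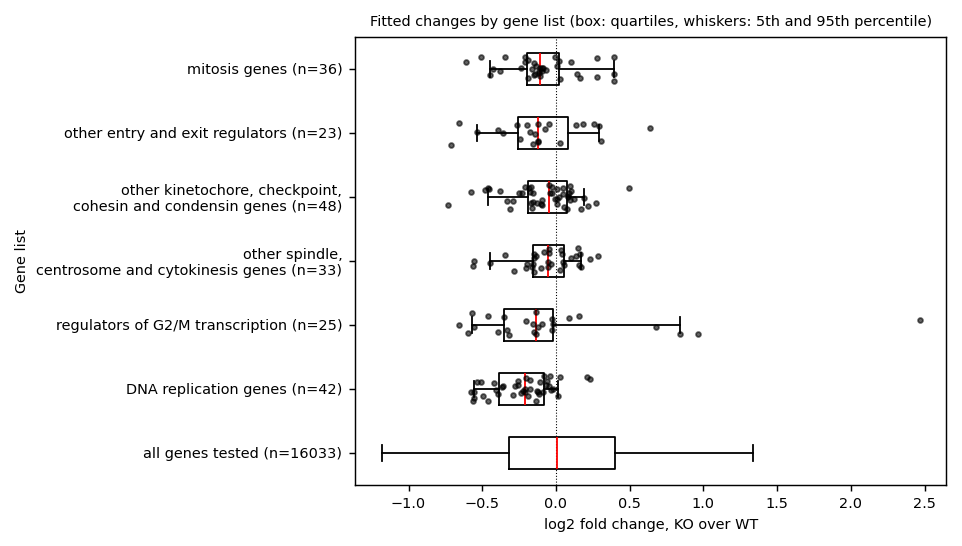
Fitted log2 fold changes, KO over WT, of the 36 mitosis genes, 5 related gene lists and all 16033 genes tested (dots: genes, boxes: quartiles with the median in red, whiskers: 5th to 95th percentile). The mitosis genes lie between -0.61 and 0.40, and Cdkn1a at 2.47 stands apart among the transcription regulators.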

How the data were processed

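The deposited values are raw read counts, one whole number for each Ensembl gene and library, not normalized by the authors. Per the labels' protocols, 1.3 ug of total RNA went into NEBNext Ultra II RNA libraries. The submitters' processing notes name Subread 1.5.2, STAR 2.5.2b, Trimmomatic 0.36, bcl2fastq 2.17 and DESeq2, with GRCm38 (mm10) as genome. No source used here gives the annotation release, the strand setting or the handling of multi-mapping reads, so counts of overlapping genes and near-identical copies are uncertain. Symbols, positions and exon lengths came from GENCODE M21 (GRCm38), which matched 49056 of 49315 gene IDs. A total of 19952 genes had no count in any library.

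The test was edgeR 4.0.16 (R 4.3.3), with filterByExpr (minimum count 10, 16033 genes left), TMM scaling and a robust quasi-likelihood fit of genotype over 3 KO and 3 WT libraries. p-values were adjusted by Benjamini-Hochberg over all genes tested, with a threshold of 0.05. Standard errors and 95% intervals come from the fitted change and its F statistic. The method was tested on simulated data with few changed genes, unlike these data, so that test does not bear on the choice of scaling. No 2 replicates agreed within counting noise, as 1 library deposited again would (chi-square over its degrees of freedom 5.11 to 7.54 between WT and 6.73 to 28.9 between KO replicates, highest for KO replicates 2 and 3). Alternatives were DESeq2 1.42.0, limma voom (limma 3.58.1), other scalings and filters, a non-robust fit, the replicate number as a block and the omission of each library. The mitosis genes and the 5 related lists were chosen with earlier results of these data known. All 36 mitosis genes are named, with Chchd2, Cdkn1a, Foxm1 and Mybl2, and from each related list the 4 called genes that changed most, among those of 1 CPM or more in the higher genotype. The comparison with genes of at least 40 CPM, the gene ratios, the motif search, the exon length comparison, Spc24 and the further transcription regulators named were added after the data were seen.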

Additional observations from a re-analysis of the deposited data

How the results depend on the processing

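Of 540 refits of single mitosis genes (36 genes in 15 settings), 453 kept direction and side of the threshold, 58 lost the call, 12 gained it and 17 turned sign. The cause of these changes was not tested. With library totals the log2 changes of Plk1, Cenpe, Spc25, Mad2l1, Aurkb, Incenp, Kif20a, Tpx2 and Top2a turned to 0.0256, 0.0362, 0.0047, 0.0509, 0.0074, 0.0141, 0.1142, 0.0255 and 0.0115. Kif20a was at 0.0452 with upper quartiles and at 0.0018 with the filter of 1 CPM and without WT replicate 2, and ran from -0.0232 to 0.0064 over omitted libraries. Bub1 ran from -0.0161 to 0.0426 over omitted libraries and Espl1 from -0.0134 to 0.0274, and Espl1 was at -0.0013 with no filter. Counts of mitosis genes were 12 higher and 6 lower with library totals and 9 lower with upper quartiles, and their median log2 change was 0.0094 and -0.06 under these. Over omitted libraries, calls ran from 14 to 28, lower calls from 9 to 21 and higher calls from 5 to 7, and those of the further spindle list from 9 to 22. The number of all genes called ran from 7585 to 10002 over omitted libraries. It stayed within 1.5 times the 8926 of the full data in every setting. The libraries of both genotypes carry the same set numbers, and the labels do not say whether same-numbered ones were handled together. Deviations of same-numbered libraries correlated at -0.059, 0.0513 and 0.0283, and those of differently numbered ones at -0.0946 to 0.0848. No pairing was seen in these values, but with so few libraries they cannot exclude one. With the replicate block 21 mitosis genes were called, as Cdc25c was lost (log2 change 0.14), and the median was -0.11. The biological coefficient of variation was 8.35%, and each mitosis gene had at least 1647 counts in every library.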

Other observations

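Of 13 relatives of the mitosis genes, chosen after the data were seen, 5 were lower in KO cells (Plk2, Cdc25a, Plk4, Cdc25b and Kif20b), 4 did not pass the test and 4 were below the filter on counts. Of all genes tested 27.8% were lower, and of those of at least 40 CPM 42.5% were, so these few genes are given as a description. Plk2, a stress-responsive relative of Plk1 that acts outside mitosis, was at 55.8, 97.5 and 34.4 CPM in KO libraries, against 425, 387 and 261 CPM in WT libraries. The groups did not overlap, although both varied widely, and the log2 change was -2.51 (SE 0.48, edgeR adjusted p = 0.0109, at most 0.0452 over all settings). Plk3 was at 29.5, 27.2 and 20.9 CPM in KO cells, against 22.6, 22.5 and 21.6 CPM in WT cells, and did not pass (edgeR adjusted p = 0.118). The germline relatives Ccna1, Ccnb3 and Aurkc reached at most 0.286 CPM in a library.

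Top2b, the topoisomerase gene that is not tied to the cell cycle, averaged close to the same level in both genotypes (log2 change -0.07, edgeR adjusted p = 0.249), and Cdk2 was at -0.12 (edgeR adjusted p = 0.0897). Of the CDC25 genes, Cdc25a fell by 0.71 (edgeR adjusted p = 6.76e-05), a call kept in all 15 settings, and Cdc25b by 0.17 (edgeR adjusted p = 0.0264), a call kept in 10 of 15. Plk4 fell by 0.34, a call kept in all 15, and Kif20b by 0.15, a call kept in 8. Pseudogenes named after a member took few counts: Ccnb1-ps had 14, 19 and 12 in KO and 25, 18 and 17 in WT cells, Ccnb2-ps had 9, 14 and 10 in KO and 19, 19 and 13 in WT cells, and Kif4-ps had 0 in all. Copies under other names were not searched for. As the handling of multi-mapping reads is not known, few counts on a copy do not show that its parent gene was unaffected.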
